A study of Mus musculus with 21 samples.

Results

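Smooth muscle cells were taken as the cells that carried the Smooth Muscle label after Harmony integration, and they made up 1665 of the 87822 cells in the 21 single-cell RNA-seq samples examined here (1.90%). Each sample came from the tibialis anterior, a muscle at the front of the lower hindlimb, of 1 female C57Bl/6J mouse aged 20 months. The muscle was either left uninjured (4 mice) or injected with notexin, a toxin that damages muscle fibers and so starts their regeneration, and collected at 1 (4 mice), 2 (3 mice), 3.5 (4 mice), 5 (3 mice) or 7 (3 mice) days post-injury (dpi). The toxin was given in both tibialis anterior muscles of a mouse, and each sample of a group came from a separate animal. Muscles were digested with enzymes, and single cells were captured with 10x v3 chemistry, in which each transcript carries a unique molecular identifier (UMI).

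Smooth muscle cells are contractile cells that wrap arteries, arterioles and veins and set the width of the vessel. Pericytes are their relatives on capillaries, and both are called mural cells because they sit on the outer wall of the endothelial tube. Acta2 and Myl9 encode an actin and a myosin light chain of the contractile apparatus, and Myh11 encodes the smooth muscle myosin heavy chain, the marker that separates mature smooth muscle cells from most other mural cells. In skeletal muscle, new myofibers depend on blood vessels for oxygen and for the entry of immune cells, and the vessel wall has to be kept or rebuilt while the fibers regenerate.

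The tables hold labels and per-cell totals, and values of Acta2, Myh11 and Myl9 were not analysed here, so the Smooth Muscle label was compared with the labels of other integration methods instead of with its markers. Between 18 and 244 smooth muscle cells remained per mouse, with 611 in the uninjured group and 139, 241, 99, 306 and 269 in the groups at 1, 2, 3.5, 5 and 7 dpi. Their UMIs summed to between 170623 and 2258660 per mouse. Over all cells of a mouse, the total was between 5602460 and 70730200 UMIs, and the sequencing saturation was between 28.1% and 87.4%. The share of cell barcodes that remained after filtering was 25.3% to 49.5% in uninjured mice and 54.3% to 83.2% in injured mice, and its part in the results below was not tested. All 87822 cells were called singlets, 1 barcode occurred in 2 smooth muscle cells of different samples, and no pair of samples shared more than 0.418% of its barcodes. Of the smooth muscle cells, 35 (2.10%) had fewer than the 750 genes stated as the minimum, against 6.50% of the other cells.

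The first comparison asked how the share of smooth muscle cells among all recovered cells moved through degeneration and repair. The share fell after injury. Smooth muscle cells made up 5.51%, 7.15%, 4.02% and 4.11% of all cells in uninjured mice A to D. At 1 dpi they made up 0.893%, 1.75%, 0.530% and 1.77%, and at 2 dpi 0.739%, 1.67% and 2.70%. Every mouse at 1 and 2 dpi was below every uninjured mouse. The lowest shares were found at 3.5 dpi, with 0.639%, 1.06%, 0.267% and 0.847%. At 5 dpi the values were 0.977%, 1.94% and 3.39%, and at 7 dpi 1.46%, 2.59% and 3.18%. The 17 injured mice therefore lay between 0.267% and 3.39%, below the lowest uninjured mouse at 4.02%. Counted by UMIs instead of cells, smooth muscle cells held 10.6% to 13.4% of the total in uninjured mice and 0.333% to 1.02% at 3.5 dpi.

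The mean share was 5.20% ± 1.47 (SD, n = 4) in uninjured mice and 0.704% ± 0.339 (SD, n = 4) at 3.5 dpi, a difference of -4.49 percentage points and a 7.38-fold lower mean. Over the 6 time points the share differed by more than the spread between mice (two-sided permutation test of the F statistic, p = 0.000400, Benjamini-Hochberg adjusted p = 0.000767 over 23 cell types). Of the 23 types, 78.3% passed the same test, and 30.4% passed it with a lower share at their largest difference, so a change in share was common among the cell types of this muscle. Compared singly with uninjured mice, each time point gave the smallest p that the exact two-sided permutation test allows, 0.0286. Adjusted over the 23 types, these exact p were 0.0657, 0.0597, 0.0346, 0.0505 and 0.0548 for 1, 2, 3.5, 5 and 7 dpi (Benjamini-Hochberg), so that 3.5 dpi alone passed. Because the exact p of smooth muscle cells was the same at each time, these adjusted values differed only through the p of the other types. The pass at 3.5 dpi therefore does not set that time apart for smooth muscle cells. With BBKNN labels 1 dpi passed too (adjusted exact p = 0.0482), and with Scanorama Pericytes counted as smooth muscle 3.5 dpi did not (adjusted exact p = 0.0505). At 3.5 dpi 82.6% of the types passed, and at each of the other times 0 of the 23 did. Smooth muscle cells had all mice below all uninjured mice at each time, as did 13.0%, 30.4%, 39.1%, 17.4% and 8.70% of the 23 types (smooth muscle cells included) at 1, 2, 3.5, 5 and 7 dpi.

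**Figure D1:**
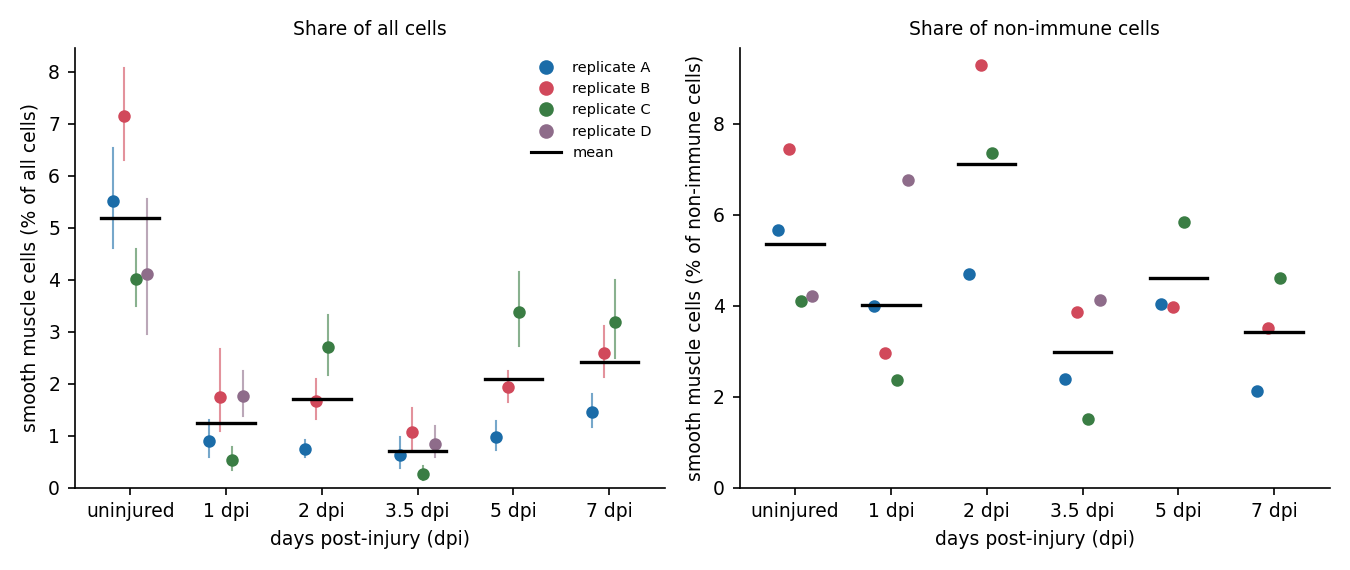
Smooth muscle cells as a percent of all cells (left) and of non-immune cells (right) in each mouse, by days post-injury. Points are mice, coloured by replicate letter, black bars are group means, and the thin lines on the left are exact Clopper-Pearson 95% intervals, which cover counting error only. On the left the 17 injured mice lie between 0.267% and 3.39% and the 4 uninjured mice between 4.02% and 7.15%, whereas on the right the groups overlap.

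Between neighbouring time points no step in the share of all cells reached a p of 0.05. Group means were 1.24% ± 0.625 (SD, n = 4) at 1 dpi and 1.70% ± 0.981 (SD, n = 3) at 2 dpi. Later they were 2.10% ± 1.21 (SD, n = 3) at 5 dpi and 2.41% ± 0.876 (SD, n = 3) at 7 dpi. From 3.5 to 5 dpi the mean was 2.98-fold higher, and the mice overlapped (exact two-sided permutation test, p = 0.0571, where 0.0286 is the smallest possible). From 5 to 7 dpi the exact p was 0.8, and with 3 mice against 3 it cannot go below 0.1. Within groups, mice differed by more than counting error. The exact 95% interval (Clopper-Pearson) of uninjured replicate B, 6.31% to 8.07%, did not overlap that of uninjured replicate C, 3.49% to 4.60%, and at 5 dpi the interval of replicate A, 0.731% to 1.28%, lay below that of replicate C, 2.73% to 4.15%.

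The test of the fall depended on the label. With the Smooth Muscle label of Scanorama in place of that of Harmony, the difference at 3.5 dpi was -1.07 percentage points (adjusted p = 0.251, permutation test), and with cells that carried the label by every method it was -1.07 (adjusted p = 0.206, permutation test). Scanorama called most of these cells Pericytes, and with both of its labels counted together the difference was -4.24 (adjusted p = 0.00176, permutation test). Smooth muscle cells that carried the Pericytes label made up 3.60% ± 0.643 (SD, n = 4) of all cells in uninjured mice and 0.555% ± 0.294 (SD, n = 4) at 3.5 dpi. Those that Scanorama called Smooth Muscle started from a lower share, 0.485%, 3.14%, 0.378% and 0.616% of all cells in uninjured mice A to D. At 3.5 dpi replicate A had 0 such cells, and replicates B, C and D had 0.114%, 0.0148% and 0.205%.

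Immune cells took up 2.15% to 3.72% of the cells of uninjured mice, 37.5% to 73.1% at 1 dpi and 69.7% to 78.3% at 3.5 dpi. A share of all cells falls when other cells are added, so smooth muscle cells were next expressed as a percent of non-immune cells. Uninjured mice A to D had 5.66%, 7.44%, 4.11% and 4.21%. Mice at 2 dpi had 4.70%, 9.28% and 7.36%, and mice at 3.5 dpi had 2.40%, 3.87%, 1.51% and 4.12%. The 3.5 dpi group overlapped the uninjured group only where its highest mouse, at 4.12%, exceeded the lowest uninjured mouse, at 4.11%.

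The 1 dpi mice had 3.99%, 2.96%, 2.38% and 6.75%. The 5 dpi mice had 4.03%, 3.97% and 5.84%, and the 7 dpi mice 2.13%, 3.51% and 4.62%. All 3 groups overlapped the uninjured mice. Means of the share of non-immune cells were 5.35% ± 1.56 (SD, n = 4) before injury, 7.11% ± 2.30 (SD, n = 3) at 2 dpi and 2.98% ± 1.24 (SD, n = 4) at 3.5 dpi. The time course did not pass the test (permutation test, p = 0.0572, Benjamini-Hochberg adjusted p = 0.136 over 13 non-immune types), which 30.8% of those types passed. All mice at 3.5 dpi were below all mice at 2 dpi, with a difference of -4.14 percentage points (exact two-sided permutation test, p = 0.0286, adjusted p = 0.114 over the 4 neighbouring steps), as was so for 30.8% of the 13 types. The time course passed when cells under 1000 genes, under 2000 UMIs or above 15% mitochondrial UMIs were left out, with a difference at 3.5 dpi of -4.26 points and an adjusted p of 0.0254 (permutation test), and when replicate D at 1 dpi was left out (-2.38 points, adjusted p = 0.0491, permutation test).

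The endothelial cells of arteries, capillaries and veins line the vessels that smooth muscle cells and pericytes surround, and a comparison with them asks whether the parts of the vessel wall moved together. At 3.5 dpi the mean share of all cells was 0.136 times the uninjured mean for smooth muscle cells, 0.0950 times for arterial, 0.124 times for capillary and 0.190 times for venous endothelial cells. At 5 dpi the same ratios were 0.404, 0.165, 0.219 and 0.558, and at 7 dpi 0.464, 0.377, 0.416 and 0.743. The share of all cells passed the test over time for arterial (permutation test, adjusted p = 0.000204) and capillary cells (adjusted p = 0.00583) and not for venous cells (adjusted p = 0.0591), of which 1 dpi replicate B had 2.01%, more than any uninjured mouse.

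Set against arterial cells in the same mouse, smooth muscle cells numbered 0.839, 1.36, 0.482 and 0.648 per arterial cell in uninjured mice A to D (0.5 cells added to both numbers). At 5 dpi the 3 mice had 2.84, 1.69 and 1.87 smooth muscle cells per arterial cell. These lay above every uninjured mouse, and arterial cells were the only 1 of the 22 types set against smooth muscle cells (4.55%) for which this held. At 7 dpi the values were 0.627, 1.05 and 1.18, below all 3 mice at 5 dpi (exact two-sided permutation test, p = 0.1, the smallest possible). The same held for the ratio to capillary cells, and for how many other types it held was not counted. On the log2 scale the mean ratio was -0.37 ± 0.64 (SD, n = 4) in uninjured mice and 1.05 ± 0.40 (SD, n = 3) at 5 dpi, a difference of 1.42 or 2.68-fold. It did not pass the test (permutation test, p = 0.0782, Benjamini-Hochberg adjusted p = 0.124 over ratios to 22 types, of which 50.0% passed), and the exact p of 5 dpi against uninjured mice was 0.0571.

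The ratio to capillary cells was 0.121, 0.380, 0.0657 and 0.0753 smooth muscle cells per capillary cell in uninjured mice A to D. At 5 dpi it was 0.266, 0.194 and 0.212. Uninjured replicate B stood above all 3 of these mice, so the groups overlapped, and the log2 difference was 0.85 (permutation test, adjusted p = 0.545). Relative to venous cells the largest log2 difference was -0.81, at 1 dpi (permutation test, adjusted p = 0.603). Venous cells were few, between 6 and 87 per mouse, which limits the precision of that ratio.

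**Figure D2:**
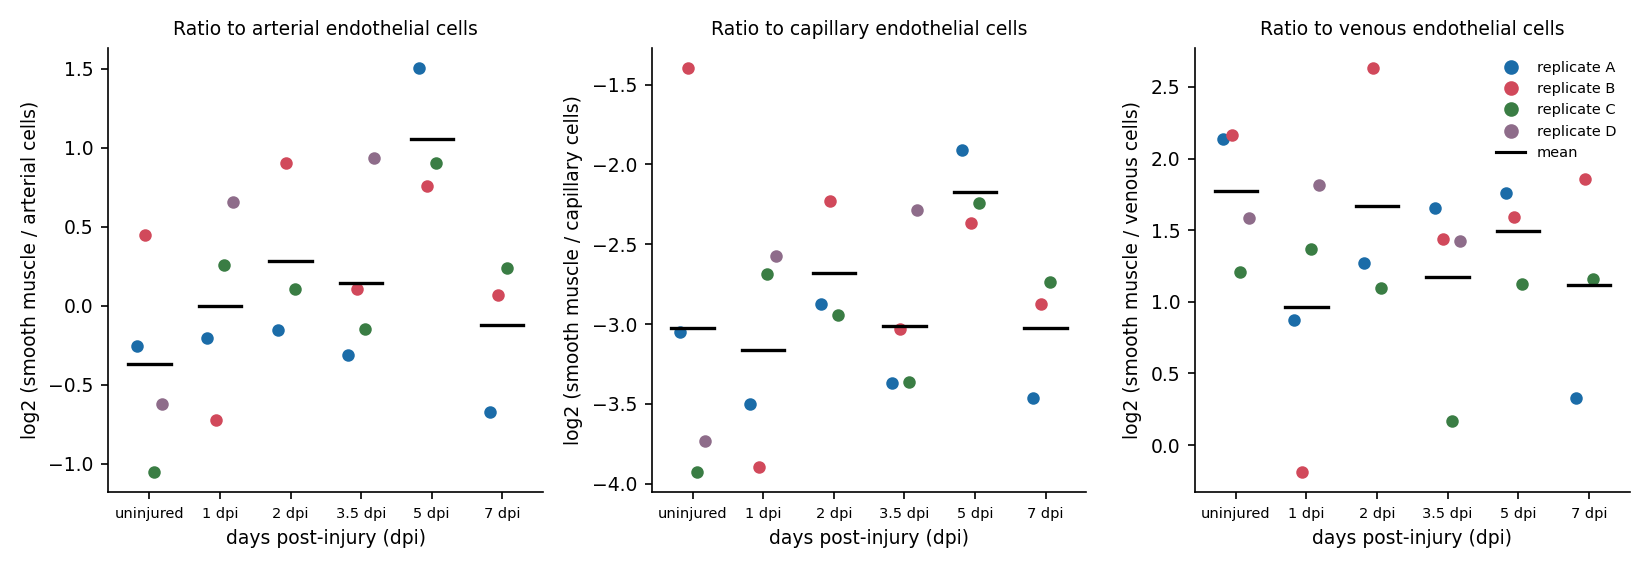
Log2 ratio of smooth muscle cells to arterial (left), capillary (middle) and venous (right) endothelial cells in each mouse, with 0.5 cells added to both numbers, by days post-injury; each panel has its own y axis. Points are mice, coloured by replicate letter, and black bars are group means. At 5 dpi the 3 ratios to arterial cells, 0.75 to 1.50, lie above the highest uninjured mouse at 0.45.

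As a share of smooth muscle and endothelial cells together, smooth muscle cells made up 9.31%, 21.8%, 5.33% and 6.12% in uninjured mice A to D. The values at 5 dpi were 18.4%, 14.1% and 14.9%, and the highest uninjured mouse was above them all. The means were 10.6% ± 7.63 (SD, n = 4) and 15.8% ± 2.32 (SD, n = 3), and the time course did not pass (permutation test, p = 0.423, adjusted p = 0.564 over 4 vascular types, of which 25.0% passed). With the stricter filter on cells the sign at 5 dpi turned, to -1.70 percentage points (adjusted p = 0.265, permutation test).

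Ratios to all 22 other cell types were tested together. Smooth muscle cells fell past the threshold relative to 9 of 10 immune types and to 2 of 12 non-immune types, and rose past it relative to none. The 2 non-immune types that passed were those of the myogenic lineage that proliferate in repair, muscle stem cells (MuSCs) and myoblasts or progenitors. For arterial, capillary and neural cells and type IIb and IIx myonuclei the largest log2 difference was upward, from 0.85 to 1.42, and did not pass. Against myoblasts and progenitors the mean log2 ratio moved from 5.90 in uninjured mice to -1.96 at 3.5 dpi (permutation test, adjusted p = 4.40e-05). Against MuSCs it moved from 1.95 to -1.72 (permutation test, adjusted p = 0.00256). B cells were the immune type that did not pass (log2 difference -2.74, permutation test, adjusted p = 0.156).

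The label itself varied with the method of integration. BBKNN, a method that joins nearest neighbours across samples, called 1607 of the 1665 cells smooth muscle (96.5%), 32 arterial and 10 capillary endothelial. In the labels named as given before filtering, 1627 (97.7%) carried the same label, and whether integration came before those labels is not stated. Scanorama called only 308 (18.5%) Smooth Muscle and 1212 (72.8%) Pericytes, and it placed 106 (6.37%) among capillary endothelial cells. In the other direction, 308 of the 309 cells that Scanorama called Smooth Muscle and 1212 of its 1249 Pericytes had the Harmony label Smooth Muscle. The Harmony class thus held nearly all cells to which Scanorama gave either mural label. Scanorama's broad classes put its Pericytes with endothelial cells and not with smooth muscle.

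How many of the cells were called Smooth Muscle by Scanorama differed widely between mice. Uninjured replicate B had 107 of 244 (43.9%, exact 95% interval 37.5% to 50.3%), whereas uninjured replicates A, C and D had 8.80%, 9.41% and 15%. At 7 dpi replicate C had 31 of 72 (43.1%), replicate B had 3 of 110 (2.73%), and replicate A had 0 of 87, which allows a share of up to 3.45% by the limit of 3 cells for a count of 0 (4.15% by the exact interval). At 3.5 dpi replicate A had 0 of 20, which allows up to 15% by the limit of 3 cells (16.8% by the exact interval), and replicates B, C and D had 10.7%, 5.56% and 24.2%. The mean was 19.3% in uninjured mice and 10.1% at 3.5 dpi, a difference smaller than the spread among the uninjured mice.

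The 4 mice at 1 dpi had 15.4%, 19.0%, 20.8% and 26.5%, the 3 mice at 2 dpi 3.85%, 13.0% and 22.1%, and the 3 mice at 5 dpi 19.2%, 14.0% and 25.6%. Over time neither this share (permutation test, adjusted p = 0.749) nor the share called smooth muscle by BBKNN (permutation test, adjusted p = 0.125) passed the threshold, among 18 tests of broad classes and methods of which 33.3% passed. BBKNN gave the label to 94.6% to 97.5% of the cells in uninjured mice and to 97.1% to 100% at 1 dpi. Without replicate D at 1 dpi the BBKNN difference at 1 dpi was 4.21 points and passed (adjusted p = 0.0469, permutation test). The share called Pericytes ranged from 50.0% to 91.8% over the 21 mice (permutation test over time, p = 0.887).

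**Figure D3:**
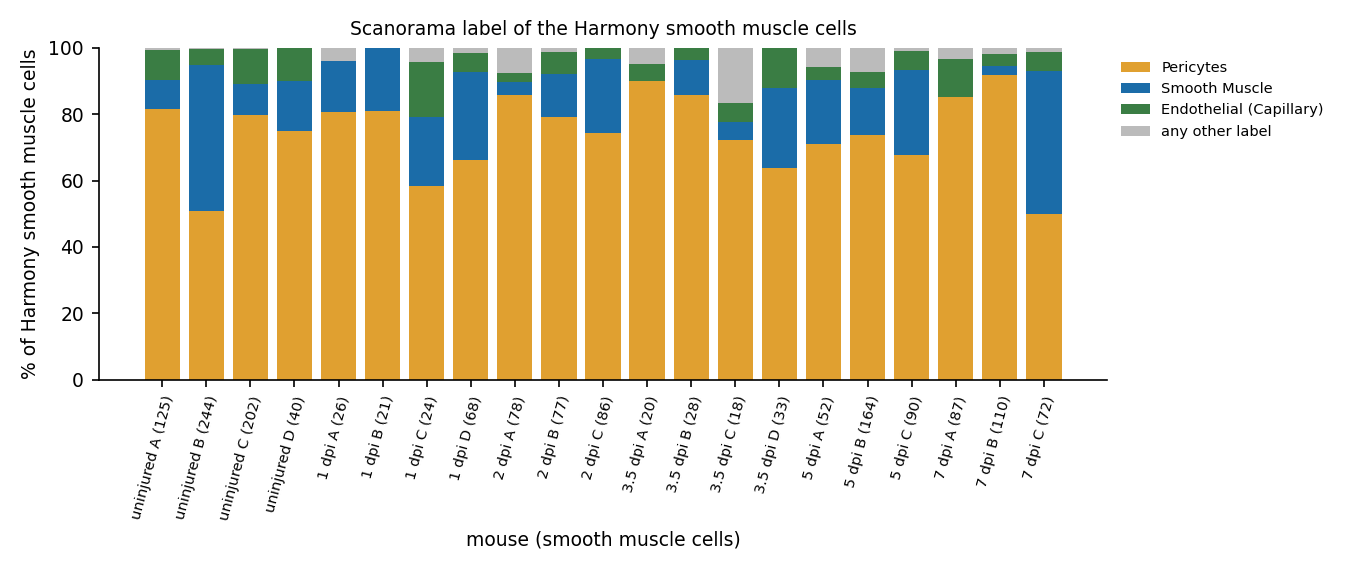
Scanorama labels of the Harmony smooth muscle cells in each mouse, as a percent of those cells, with the number of cells in brackets. Stacked bars give the labels Pericytes, Smooth Muscle, Endothelial (Capillary) and any other label. Uninjured replicate B (43.9%) and replicate C at 7 dpi (43.1%) hold the highest shares labelled Smooth Muscle, and replicates A at 3.5 and 7 dpi hold none.

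The 2 Scanorama labels divided the cells along several per-cell measures, which are given as a description because the labels were made from the same cells' genes. Among the 13 mice with at least 5 cells of each label, the median percent of UMIs from mitochondrial genes was higher in cells labelled Smooth Muscle than in cells labelled Pericytes in 13 of 13 mice. In uninjured mice A to D it was 17.6%, 21.3%, 18.3% and 12.1% in the former and 15.3%, 15.02%, 11.5% and 8.78% in the latter. At 5 dpi the values were 16.3%, 10.2% and 12.3% against 7.50%, 7.09% and 7.11%. The difference ranged from 2.35 to 8.85 percentage points.

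The percent from ribosomal genes went the other way in 11 of 13 mice, with a median over mice of 5.92% in cells labelled Smooth Muscle and 8.55% in cells labelled Pericytes. The percent named hsp in the tables was lower in 12 of 13 mice (0.651% against 1.01%), and the percent named tf in 10 of 13 (4.74% against 5.23%). Numbers of genes per cell did not follow a common direction, being higher in cells labelled Smooth Muscle in 6 mice and lower in 7. UMIs per cell were higher in 8 mice and lower in 5.

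**Figure D4:**
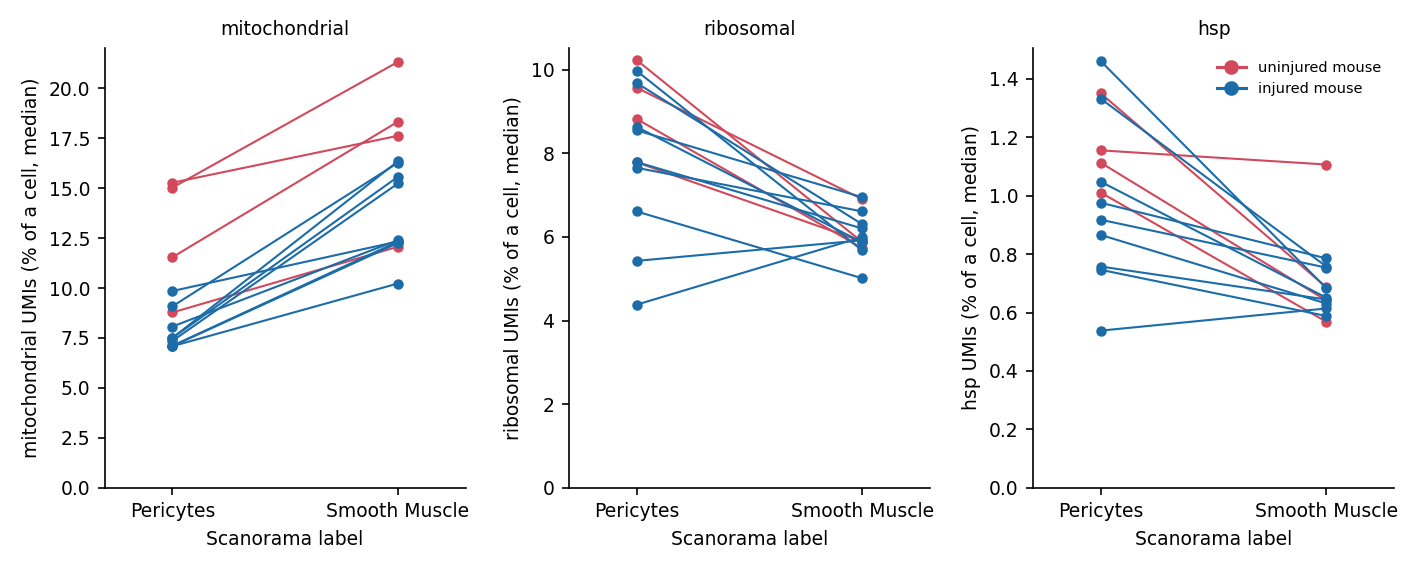
Median percent of UMIs from mitochondrial (left), ribosomal (middle) and hsp (right) genes in Harmony smooth muscle cells that Scanorama labelled Pericytes or Smooth Muscle. Each line joins the 2 values of 1 of 13 mice with at least 5 cells of each label, red for uninjured and blue for injured mice. Mitochondrial percent is higher under the Smooth Muscle label in 13 mice, ribosomal percent lower in 11 and hsp percent lower in 12.

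No difference over time in the amount of RNA detected per smooth muscle cell passed the test. The median was 12281, 8643, 10003 and 12533 UMIs in uninjured mice A to D. At 3.5 dpi it was 7048, 3756, 9229 and 12134 UMIs. The groups overlapped, the log2 difference of means was -0.54, and the test did not pass (permutation test, p = 0.644, adjusted p = 0.673 over 23 types, of which 26.1% passed). Single smooth muscle cells spanned 1006 to 84860 UMIs.

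Over all 21 mice the median number of genes per smooth muscle cell lay between 1811 and 4102. The uninjured mice had 3558, 2707, 3108 and 3543 genes, and the mean was 3229 ± 406 (SD, n = 4) against 2956 ± 860 (SD, n = 4) at 3.5 dpi (log2 difference -0.17, permutation test, adjusted p = 0.891, with 26.1% of types passing). Among cells with 2000 to 8000 UMIs, where depth was more alike, the medians were 1551 to 2066 genes in the 4 uninjured mice and 1549 to 2325 in the 12 injured mice with at least 10 such cells.

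The place of smooth muscle cells within their own sample did move. In uninjured mice A to D a smooth muscle cell held 2.66, 2.25, 3.27 and 3.39 times the median UMIs of the other cells. At 3.5 dpi these ratios were 0.497, 0.256, 1.04 and 1.13, below every uninjured mouse, which held for 68.8% of 16 types with enough cells. The log2 ratio differed over time (difference at 3.5 dpi -2.20, permutation test, Benjamini-Hochberg adjusted p = 0.0194, with 56.5% of types passing). The other cells had a median of 3802 ± 637 UMIs (SD, n = 4) in uninjured mice and 12100.3 ± 2783 (SD, n = 4) at 3.5 dpi, and they included the 69.7% to 78.3% immune cells given above.

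For each cell the tables give the percent of UMIs from 11 gene sets. None of the 11 passed in smooth muscle cells (permutation tests, Benjamini-Hochberg over 253 combinations of type and set, of which 32.8% passed), and 2 had an unadjusted p under 0.05, the mitochondrial set and the set named tf. The mitochondrial percent was 15.5%, 17.9%, 13.2% and 9.40% in uninjured mice A to D. At 1 dpi it was 6.50%, 10.3%, 7.50% and 10.3%, and the 17 injured mice lay between 6.50% and 11.3%. Uninjured replicate D lay within that range, and uninjured replicates A, B and C were above it.

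The mean mitochondrial percent was 14.0% ± 3.61 (SD, n = 4) in uninjured mice and between 8.65% and 8.98% at each time point after injury. The difference was largest at 1 dpi, at -5.33 percentage points (permutation test, p = 0.0327, adjusted p = 0.0870), and 56.5% of cell types passed the same test. Without uninjured replicate D it passed (-6.86 points, adjusted p = 0.0264, permutation test). It also passed when cells were averaged by their mean (-5.33 points, adjusted p = 0.0257, permutation test) and among the cells that Scanorama labelled Pericytes (-4.68 points, adjusted p = 0.0498, permutation test). Endothelial cells of the same vessels had uninjured means of 15.1% (arterial), 17.8% (capillary) and 14.2% (venous). At 1 dpi the corresponding means were 6.73%, 6.75% and 5.96%, and the time course passed in each of these types (permutation tests, adjusted p = 0.0369, 0.0198 and 0.0327). Whether the smooth muscle time course differed from theirs was not tested.

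Relative to the other cells of the same mouse, the order turned. Smooth muscle cells were at -0.638, -0.539, -3.49 and 1.20 percentage points from the median mitochondrial percent of the other cells in uninjured mice A to D. At 1 dpi they were 3.19, 4.44, 4.55 and 6.07 points above it, and at 3.5 dpi 2.39, 5.78, 4.28 and 4.65 points. All mice at 1, 2, 3.5 and 5 dpi were above all uninjured mice, as held for 50.0%, 56.2%, 56.2% and 43.8% of 16 types. At 7 dpi, with 0.114, 0.398 and 4.59 points, the mice overlapped the uninjured group. This difference changed over time (5.43 points at 1 dpi, permutation test, adjusted p = 0.0268, with 40.3% of 253 combinations passing). The other cells had a mean of 14.9% in uninjured mice and 4.09% at 1 dpi.

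**Figure D5:**
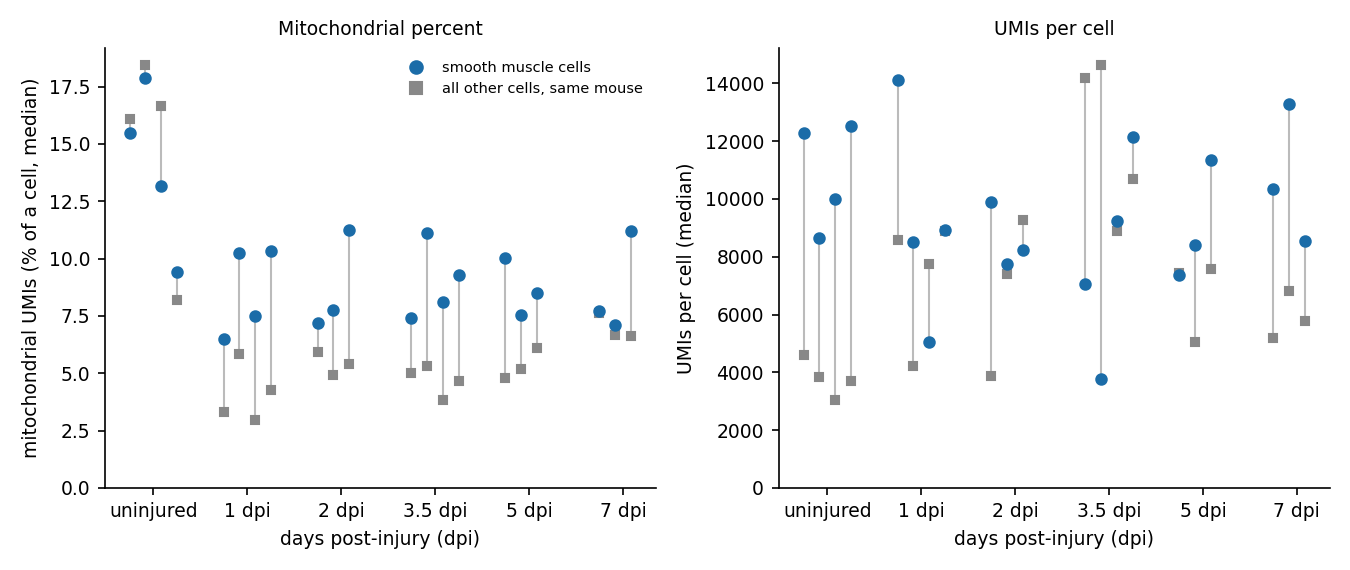
Median mitochondrial percent (left) and median UMIs per cell (right) of smooth muscle cells (blue circles) and of all other cells of the same mouse (grey squares), joined by a line for each mouse, by days post-injury. Mitochondrial percent in smooth muscle cells lies below that of the other cells in 3 of 4 uninjured mice and above it in all 17 injured mice. UMIs per smooth muscle cell are 2.25 to 3.39 times those of the other cells in uninjured mice and 0.256 to 1.13 times at 3.5 dpi.

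The percent named tf was 4.54%, 5.22%, 4.92% and 5.21% in uninjured mice A to D. At 5 dpi it was 5.31%, 6.52% and 5.63%, above every uninjured mouse, as held for 12.5% of 16 types. The difference of 0.847 points did not pass (permutation test, p = 0.0386, adjusted p = 0.0966, with 52.2% of cell types passing), and passed without replicate C at 7 dpi (0.847 points, adjusted p = 0.0134, permutation test). Relative to the other cells of the mouse, the tf percent passed over the time course (permutation test, adjusted p = 0.00204, with 40.3% of the 253 combinations passing). It was 0.979, 1.31, 0.828 and 0.457 points above the other cells in uninjured mice A to D and 2.77, 2.80, 2.14 and 2.05 points above them at 3.5 dpi. The tf differences from uninjured mice were 0.122, 1.05, 1.55, 1.09 and 0.504 points for 1, 2, 3.5, 5 and 7 dpi. At 1 and 7 dpi the mice overlapped the uninjured mice in this measure. Ribosomal percent had a mean of 8.62% ± 1.20 (SD, n = 4) in uninjured mice and 7.52% ± 1.45 (SD, n = 3) at 7 dpi (permutation test, adjusted p = 0.435). Relative to the other cells, ribosomal percent passed over the time course (permutation test, adjusted p = 0.0174, with 40.3% of the 253 combinations passing). Differences from uninjured mice were 0.650, -1.99, -3.55, -4.63 and -2.78 points for 1, 2, 3.5, 5 and 7 dpi. At 1, 2 and 7 dpi the mice overlapped the uninjured mice. For how many other types the mice stood apart in these relative tf and ribosomal percents was not counted.

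Of the remaining sets, protein-coding transcripts took 86.0% to 92.4% of the UMIs of a smooth muscle cell over the 21 mice, long intergenic noncoding RNA (lincRNA) 1.65% to 4.53%, the set named hsp 0.605% to 1.33%, and antisense transcripts 0.0656% to 0.136%. The sets named bplncRNA, snoRNA, miRNA and snRNA each took at most 0.0299% in every mouse. Their adjusted p over time ranged from 0.232 for snoRNA to 0.990 for lincRNA (permutation tests).

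Beside the 22 other types, and as a description of how this class lies in the data, smooth muscle cells ranked high in lincRNA and in the set named tf. Of 23 types, ordered by the median over mice, they ranked 2 in lincRNA percent, 3 in tf, antisense and bplncRNA percent, 4 in hsp percent and 5 in genes per cell. They ranked 19 in ribosomal percent and 22 in protein-coding percent. Compared with capillary endothelial cells of the same mouse, smooth muscle cells had more UMIs in 20 of 21 mice (median ratio 2.87) and a higher lincRNA percent in 21 of 21. Their ribosomal percent was lower than that of venous endothelial cells in 19 of 19 mice, of arterial cells in 17 of 21 and of capillary cells in 13 of 21. Their tf percent was higher than that of venous cells in 19 of 19 mice and of capillary cells in 15 of 21. Compared with arterial endothelial cells the lincRNA percent was higher in 20 of 21 mice, whereas tf percent was lower in 13 of 21 (median 5.22% against 5.61%) and hsp percent lower in 16 of 21. The DoubletFinder score is the share of artificial doublets among a cell's neighbours. It was higher in smooth muscle cells than in the other cells in 21 of 21 mice (median 0.276 against 0.195). Against venous endothelial cells it was higher in 16 of 19 mice. Against pro-remodeling fibro-adipogenic progenitors it was higher in 9 of 21 mice and lower in 12 (median 0.276 against 0.328). The part of this score in the other values was not tested.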

How the data were processed

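Per-cell tables of 21 samples were analysed; those of 7-month-old animals were not analysed here. The authors aligned reads to mm10 with Cell Ranger 3.1.0, corrected for ambient RNA (SoupX), filtered cells in Seurat, took out doublets (DoubletFinder) and labelled clusters after integration with Harmony, BBKNN and Scanorama. The UMI totals per cell are expected counts in the deposited tables, no longer whole after the ambient correction. Genes per cell, barcodes and reads per cell are counts deposited by the authors. Each percent the authors deposited is a share of a cell's corrected UMIs or, by sample, the saturation and reads in cells. Each fraction the authors deposited is a sample's ambient contamination or a cell's doublet score.

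Cells were counted by mouse and label in Python 3.11.15 (numpy 2.4.6, pandas 2.3.3, scipy 1.17.1, matplotlib 3.10.9). The mouse was the replicate, so p-values set the differences between groups against the spread between mice. Shares (arcsine square root), log2 ratios (0.5 cells added) and medians over cells (at least 10 cells; means for snoRNA, miRNA and snRNA) were tested over 6 time points by permuting the F statistic 100000 times (smallest p 1e-05). Single time points were set against uninjured mice by exact permutation tests. Benjamini-Hochberg adjustment ran over all types, at 0.05. Non-immune cells were the 13 Harmony types other than 10 immune ones, without unlabelled cells. Intervals cover counting error only, and a count of 0 was given a limit of 3 cells.

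Alternatives were other labels, denominators and scales, filters and minimums of cells, depth corrections, edgeR 4.0.16 (R 4.3.3) quasi-likelihood tests, a replicate block and leaving out each mouse. Counting Scanorama Pericytes as smooth muscle, using those cells alone and testing that label were added after the labels were seen. The text names, by rule, smooth muscle cells, every deposited measure of them, the 3 endothelial types of the same vessels and the label most often given by another method. MuSCs, myoblasts, B cells, pro-remodeling fibro-adipogenic progenitors and ranks were chosen after their values were seen. Members, lists and tests were chosen with earlier results of these data known. The procedures were tested on simulated data with fewer resamples, and the outcomes are not given here.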

Additional observations from a re-analysis of the deposited data

Results flagged for a closer look

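In 66 groups of 4 mice, over 22 measures of smooth muscle cells, 3 mice stood apart from the rest of their group, by a gap that took up most of the group's range. About 1 in 20 groups of this kind is set apart by chance. The log2 ratio of smooth muscle to venous endothelial cells was 0.17 in replicate C at 3.5 dpi, against 1.42 to 1.66 in the other 3 mice, with a gap of 0.843 of the range. Replicate C had 18 smooth muscle cells and 16 venous cells. The mean percent of UMIs in the set named miRNA was 0.0117% in replicate B at 1 dpi, over 21 smooth muscle cells, against 0.00223% to 0.00293% in the other 3 mice, with a gap of 0.926 of the range. BBKNN called 97.1% of the cells smooth muscle in replicate D at 1 dpi, against 100% in each of the other 3 mice. These 3 mice had 21 to 26 smooth muscle cells each and replicate D had 68.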

How the results depend on the processing

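Of 201 alternative values outside leave-one-out, 174 kept their direction and their side of the threshold, as did 511 of 520 with 1 mouse left out. Causes were not tested. The share of all cells over time (difference at 3.5 dpi) was -1.07 percentage points with Scanorama labels (adjusted p = 0.251, permutation test) and -1.07 with the consensus of 3 methods (adjusted p = 0.206, permutation test), and no longer passed. Against uninjured mice alone, it was -3.75 points at 1 dpi with BBKNN labels, which then passed, and -4.24 at 3.5 dpi with Scanorama Pericytes counted as smooth muscle, which no longer did. With the stricter filter the share of non-immune cells was -4.26 points and passed, the share of vascular cells turned to -1.70 points and the log2 ratio to capillary cells to -0.12. With BBKNN labels the log2 ratio to venous cells turned to 0.55. Log2 differences in UMIs turned to 0.014 with means and 0.087 after division by saturation, and relative to other cells they were -2.20 and passed. Those in genes turned to 0.018 and 0.457. Relative to other cells, the mitochondrial percent turned to 5.43 points, protein-coding to -4.00 and bplncRNA to 0.00851. Among cells with 2000 to 8000 UMIs, hsp turned to 0.00944, protein-coding to -1.75 and bplncRNA to 0.000122. With consensus labels snRNA turned to 0.00134. The number of the 11 sets that passed was 1 with means, 3 relative to other cells (27.3%) and 1 in cells labelled Pericytes, where 34.8%, 40.3% and 33.2% of all 253 combinations of type and set passed.

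With 1 mouse left out, the share of all cells stayed between -4.89 and -3.84 points and passed each time. The share of non-immune cells ranged from -2.79 to -1.68 and passed without 1 dpi replicate D, as did the BBKNN share, from 3.06 to 4.21. The log2 difference in genes ranged from -0.31 to 0.046 (turned without 3.5 dpi replicate B), lincRNA from -0.000979 (without 5 dpi replicate C) to 1.24 points, and snRNA from -0.00304 to 8.38e-05 (turned without uninjured replicate D). Between 0 and 1 of the sets passed, the mitochondrial set without uninjured replicate D and tf without 7 dpi replicate C.

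Of 48 pairs of samples with the same replicate letter, 20 had deviations that correlated above 0.1 (range -0.798 to 0.732), and 6 of 21 samples were most alike to their own letter, so the letters were not taken to pair mice. With the letter as a replicate block, the adjusted p was 0.000575 for the share of all cells, 0.142 for the non-immune share and 0.115 for the ratio to arterial cells, and no call changed. The groups hold 3 or 4 mice and as few as 18 smooth muscle cells per mouse, which limits ratios and per-cell medians most at 3.5 dpi.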
